A study of Homo sapiens with 40 samples.

Results

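NRF2 (gene NFE2L2), its inhibitor KEAP1 and 7 antioxidant genes that NRF2 is known to activate (NQO1, HMOX1, GCLC, GCLM, TXNRD1, SRXN1 and SLC7A11) were followed across a study of pollutant exposure in HepaRG cells. The 9 genes were taken by name, and they are 9 of the 56568 gene names in the expression tables. HepaRG is a human hepatic cell line whose differentiated cultures hold hepatocyte-like and biliary-like cells. Total RNA depleted of ribosomal RNA was sequenced from 40 libraries in 8 groups of 5. The groups were the solvent control, PCB 126 (a dioxin-like polychlorinated biphenyl) at 100 pM, 10 nM and 1 µM, the herbicide glyphosate at 3 concentrations (10 µg/L, then 1 mg/L, then 0.1 g/L), and Roundup, a glyphosate formulation, at 10 µg/L. Every group, the control included, was kept from day 8 to day 14 in the same test medium with fetal bovine serum and DMSO, so that exposure lasted 6 days. The labels do not say which libraries came from separate cultures, so the p-values measure the spread between these libraries, which may be technical.

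NRF2 is a transcription factor whose protein is made continuously and, in unstressed cells, is bound by KEAP1, handed to a CUL3 ubiquitin ligase and degraded. Electrophiles and oxidants modify cysteines of KEAP1, NRF2 then accumulates in the nucleus, pairs with a small MAF protein and binds the antioxidant response element in the regulatory DNA of its targets. In liver cells these targets import cystine (SLC7A11), make glutathione (GCLC and GCLM), reduce thioredoxin (TXNRD1) and sulfinic peroxiredoxins (SRXN1), reduce quinones (NQO1) and degrade heme (HMOX1). Much of this control acts on NRF2 protein, which was not measured, so the NFE2L2 values below are RNA levels only.

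Because the members are grouped by the antioxidant response element, the core of that element was looked for in the RefSeq promoters (GRCh38.p14, from 250 bases before to 50 bases after a start). The table held 10 promoters for 7 of the 9 symbols, with an entry for neither HMOX1 nor SLC7A11. The core was searched as TGACNNNGC on both strands. It stood in 4 of these 10 promoters, against 13.3% of 35116 promoters of the same length. The matches lay in the promoters of GCLM, of KEAP1 (1 of its 2 starts, with 2 matches) and of TXNRD1 (both starts, 1 of them with 2 matches). Of these 6 matches, the 5 that lie wholly upstream of a start are shown, 5′ to 3′ on the strand of the gene with the core in capitals and 10 bases on either side, and the other, of TXNRD1, spans its start.
GCLM, 34 bases upstream of the start, chr1:93909446-93909474, minus strand: tacgatttctGCTTAGTCAttgtcttcca
KEAP1, 31 bases upstream, chr19:10502784-10502812, minus strand: gcccggctctGCTTAGTCAtggtgacctg
KEAP1, 54 bases upstream, chr19:10502807-10502835, minus strand: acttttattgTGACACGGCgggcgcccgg
TXNRD1, 99 bases upstream, chr12:104215670-104215698, plus strand: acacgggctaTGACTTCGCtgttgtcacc
TXNRD1, 102 bases upstream of its other start, chr12:104286920-104286948, plus strand: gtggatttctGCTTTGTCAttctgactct
GCLM and the nearer match of KEAP1 carried the same core letters, GCTTAGTCA, which read as the core on the opposite strand. The more specific form TGACTCAGC was found in 0 of the 10 member promoters and in 0.561% of all promoters. GCGTG, the core that the PCB 126 receptor AhR binds, was found in 8 of the 10 and in 36.5% of all promoters. A match describes these letters only, and its absence says only that they are not in this window. Binding was not measured here.

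The unit throughout is FPKM (fragments per kilobase of transcript, scaled to the library's total of mapped fragments), added up over all transcripts listed under a gene's name. It is a level per length, so levels of different genes can be set side by side, but it keeps no counts, and the depth behind a value is unknown. Library FPKM sums ran from 255292 to 513059. In 9 libraries over 30% of read pairs had aligned concordantly more than once: replicate 5 of the control, replicates 3 and 5 of PCB 126 at 10 nM, replicates 1 and 5 of PCB 126 at 1 µM, replicate 5 of glyphosate at 10 µg/L, replicate 2 of glyphosate at 0.1 g/L, and replicates 4 and 5 of Roundup. Their FPKM sums were 255292 to 332974, against 311488 to 513059 in 29 other libraries. Control replicate 2 and replicate 4 of PCB 126 at 100 pM have no entry and were kept throughout. The 9 libraries are called the multiply aligned libraries below. Most members were low in them, so the PCB 126 results are given with and without them. CYP1A1, the standard AhR target, checked the PCB 126 labels: it stood at 0 to 7.69 FPKM in controls, 1.09 to 319 at 100 pM, 92.1 to 377 at 10 nM and 85.2 to 389 at 1 µM. It reached at most 6.48 FPKM in any herbicide library. Hepatocyte markers were abundant. The summed FPKM of 7 (ALB, APOA1, TF, SERPINA1, TTR, HNF4A and CYP3A4) had a median of 18558 in controls and 8999 at 1 µM PCB 126. In bulk RNA, fewer cells of a type and less RNA per cell cannot be told apart.

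In control cells the members spanned a wide range of levels. By named transcripts, SRXN1, the sulfiredoxin that repairs over-oxidised peroxiredoxins, had the highest median (59.4 FPKM, range 33.3 to 63.6), followed by TXNRD1, the cytosolic thioredoxin reductase (57.6, 12.5 to 332). GCLC, the catalytic subunit of glutamate-cysteine ligase, came next at 44.6 FPKM (27.6 to 49.9), then NFE2L2 at 36.3 (19.1 to 41.9) and GCLM, the modifier subunit of that ligase, at 32.002 (18.9 to 38.1). KEAP1 stood at 21.9 FPKM (11.1 to 23.5) and the cystine importer SLC7A11 at 12.5 (6.45 to 16.7). The ranges of each of these neighbours overlapped. NQO1, the quinone reductase, was lower than all of them at 2.65 FPKM (1.13 to 4.07), and HMOX1, heme oxygenase 1, was lowest at 0.462 (0.362 to 0.527), neither range overlapping its neighbour above. This order changes for TXNRD1 and HMOX1 when assembled transcripts are counted.

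For 2 members the named transcripts missed much of the locus over all 40 libraries, and for KEAP1, GCLM and NQO1 in single libraries. StringTie had also assembled transcripts without a gene name, and where these lay on the strand and locus of a member they were added as a second sum. Of the FPKM summed over all 40 libraries, named transcripts then held 6.29% of HMOX1 and 46.8% of TXNRD1. The median by library was 6.75% for HMOX1 (1.81% to 13.5%) and 28.6% for TXNRD1 (3.00% to 92.9%). The summed share was 89.1% for KEAP1, 87.5% for GCLM, 97.6% for NQO1 and 100% for the other 4. In single libraries the named share fell to 33.0% for KEAP1, 40.6% for GCLM and 9.24% for NQO1. The canonical coding transcript of HMOX1, ENST00000216117, was listed at 0 in all 40 libraries. The assembled transcripts MSTRG.26900.4 (chr22:35381028-35394100, plus strand, 64.7% of the locus) and MSTRG.26900.3 (29.0%) held most of its signal. With them HMOX1 in controls was 10.3, 6.28, 5.22, 6.14 and 4.28 FPKM, above every control value of NQO1. TXNRD1 in controls went from 332, 41.4, 57.6, 283 and 12.5 FPKM by name to 399, 236, 299, 329 and 104 with assembled transcripts, above every control value of SRXN1. Its highest-to-lowest ratio over all 40 libraries fell from 65.4 to 5.35. Its leading named transcript, ENST00000529546 (chr12:104287022-104348828, plus strand), was listed at 0 in 20 of 40 libraries. The named TXNRD1 value thus varied far more between libraries than the sum with assembled transcripts, which is printed beside it.

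**Figure D1:**
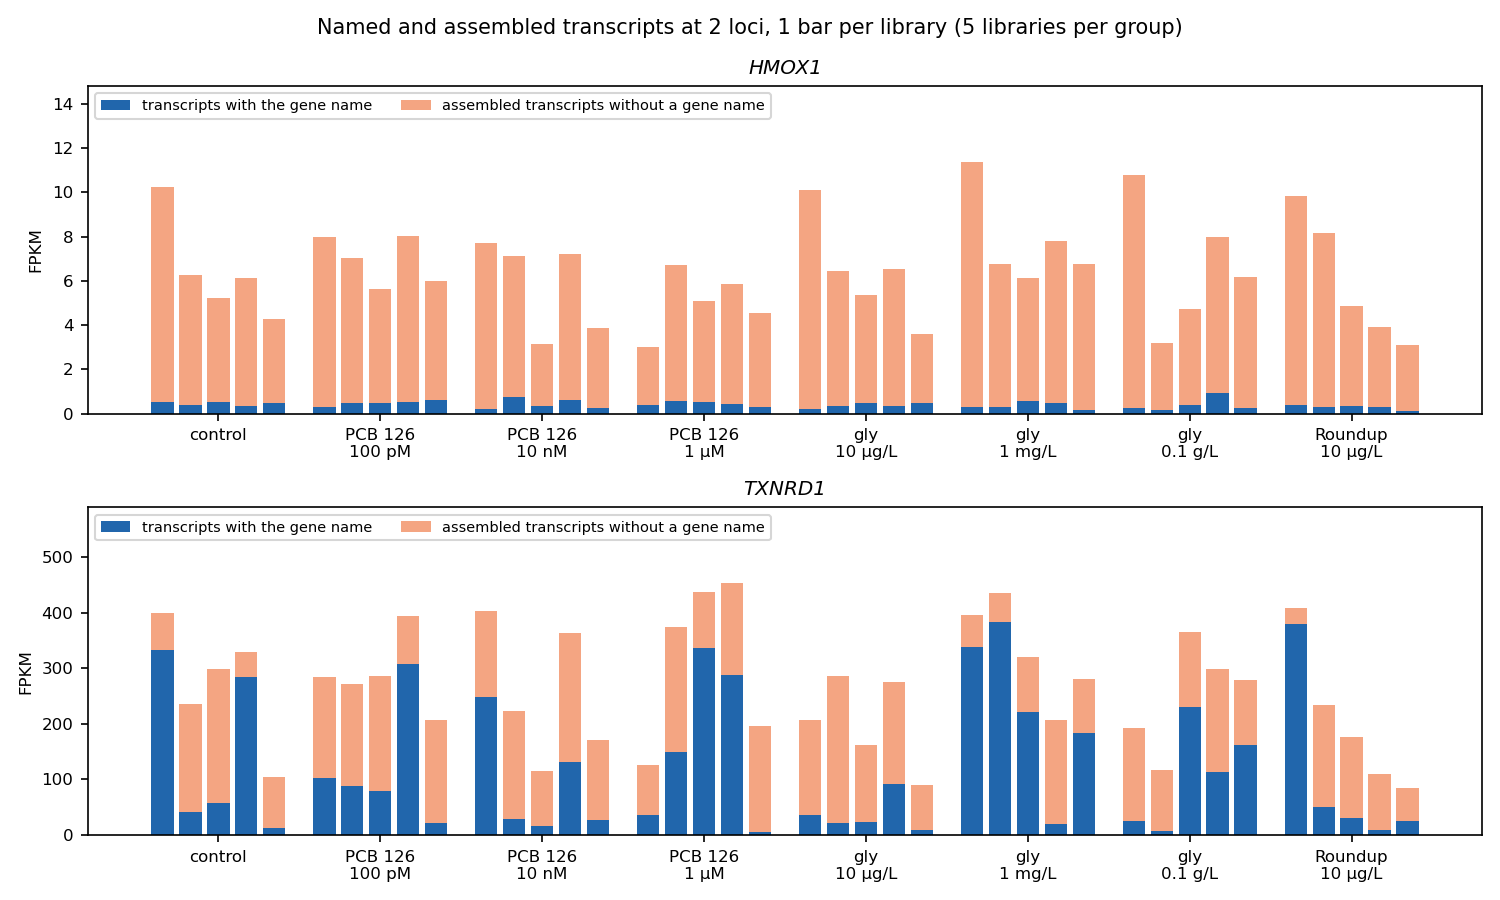
FPKM of HMOX1 and TXNRD1 in each of the 40 libraries, stacked from named transcripts and transcripts assembled without a gene name, with libraries ordered by group and replicate. Named transcripts hold 1.81% to 13.5% of HMOX1 and 3.00% to 92.9% of TXNRD1 by library.

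**Figure D2:**
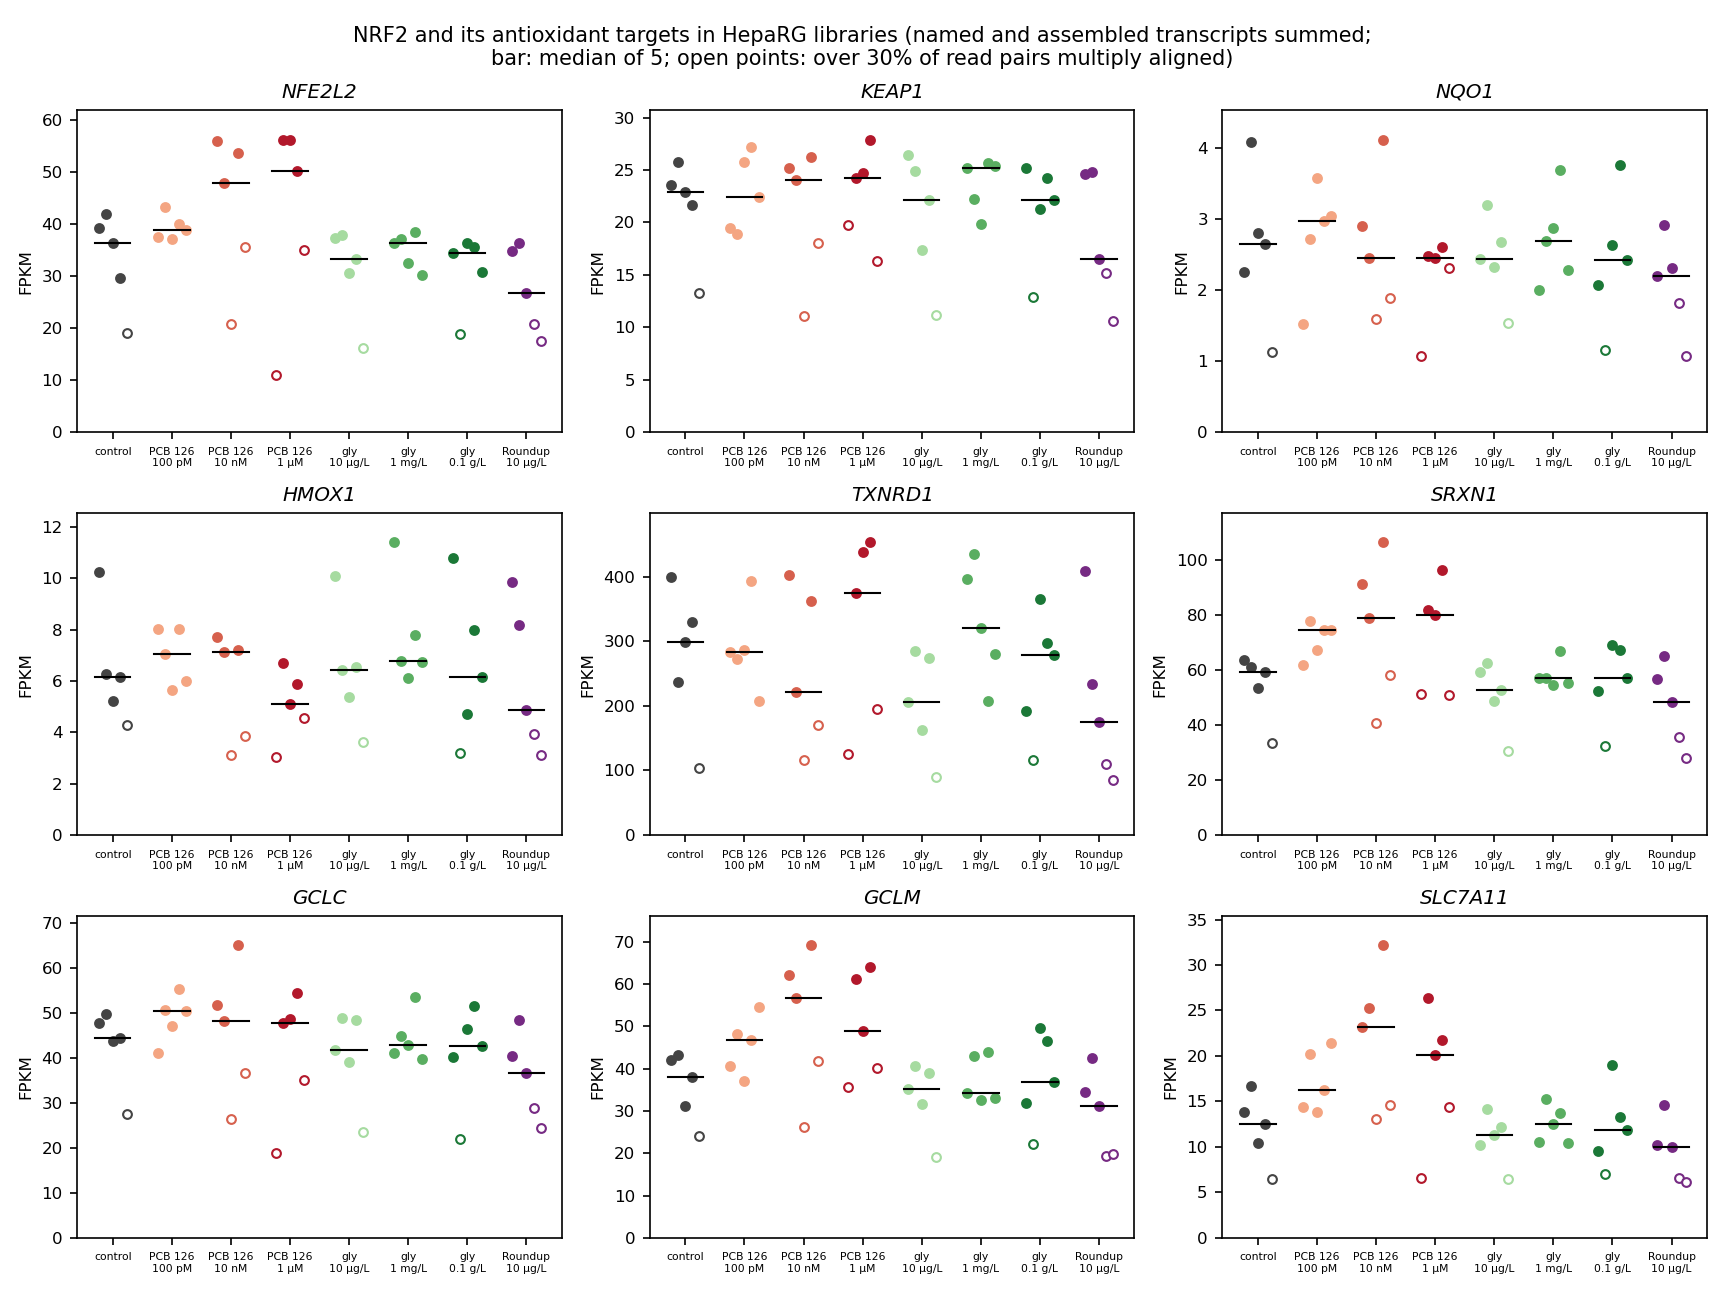
FPKM (named plus assembled transcripts) of the 9 members by group; each point is a library, bars are group medians, and open points are the 9 libraries with over 30% of read pairs aligned more than once. In the PCB 126 groups at 10 nM and 1 µM the filled points of NFE2L2, SRXN1, GCLM and SLC7A11 sit above all filled control points.

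The first question was whether PCB 126 changed the NRF2 genes. With all 20 libraries and no further scaling, 0 of the 7 members tested passed at 100 pM, 10 nM or 1 µM. There 0%, 0.205% and 1.87% of 9755 genes were called. Some scalings or weights of the libraries called members with all 20 kept, as given below. Without the multiply aligned libraries SLC7A11 rose at 10 nM (1 member of 7, against 0.675% of 8298 genes) and SLC7A11, GCLM, SRXN1 and NFE2L2 rose at 1 µM (4 of 7, against 6.34%). GCLC and KEAP1 passed in neither set. GCLM relative to GCLC was higher in every 10 nM library than in any control, as were the ratios to GCLC of 0.574% of genes. That ratio was chosen after the values were seen, and with named transcripts its difference did not pass after adjustment. The test of the members was limma on log2(FPKM + 1) across all genes with Benjamini-Hochberg adjustment at 0.05. NQO1 and HMOX1 fell below its limit on variance and were tested without that filter. With neither the filter nor the multiply aligned libraries, an alternative added after seeing the data, NFE2L2 (adjusted p = 0.0202) and SRXN1 (0.0399) still passed at 1 µM, but SLC7A11 (0.102 at 10 nM and 0.091 at 1 µM) and GCLM (0.0713) did not.

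SLC7A11 (ENST00000280612, chr4:138164097-138242349, minus strand) imports cystine in exchange for glutamate and supplies cysteine for glutathione. Its FPKM was 13.8, 16.7, 10.5, 12.5 and 6.45 in control replicates 1 to 5 and 14.4, 20.2, 13.8, 16.3 and 21.4 at 100 pM. At 10 nM it was 23.2, 25.3, 13.04, 32.2 and 14.6, and at 1 µM 6.61, 26.3, 20.1, 21.8 and 14.3. Every value at 10 nM and 1 µM lay above the highest control except those of the multiply aligned libraries (replicates 3 and 5 at 10 nM, 1 and 5 at 1 µM), which lay within the control range. At 10 nM the log2 fold change was 0.79 ± 0.32 (SE, 95% interval 0.13 to 1.45, limma adjusted p = 0.842, unadjusted p = 0.0215), and at 1 µM 0.47 ± 0.32 (-0.19 to 1.13, adjusted p = 0.52). It was the only member with an unadjusted p under 0.05 in any comparison. Without the multiply aligned libraries SLC7A11 rose by 0.96 ± 0.19 at 10 nM (0.55 to 1.37, limma adjusted p = 0.032) and by 0.73 ± 0.19 at 1 µM (0.32 to 1.14, adjusted p = 0.0372).

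GCLM (ENST00000370238, chr1:93885205-93909410, minus strand) lowers the amount of glutamate that the ligase needs and relieves its feedback inhibition by glutathione. Its FPKM was 38.1, 37.4, 27.7, 32.002 and 18.9 in controls, 35.5, 43.04, 33.4, 39.3 and 47.05 at 100 pM, 52.1, 52.7, 24.6, 61.7 and 38.5 at 10 nM and 14.5, 56.6, 43.4, 55.3 and 36.8 at 1 µM. The libraries of both higher concentrations stood above every control except 3 of the 4 multiply aligned ones, which ran from 14.5 to 36.8, while the other, at 38.5, lay just above the highest control. The log2 fold change was 0.53 ± 0.32 at 10 nM (-0.12 to 1.19, limma adjusted p = 0.865) and 0.32 ± 0.32 at 1 µM (-0.34 to 0.97, adjusted p = 0.644). Without the multiply aligned libraries it was 0.71 ± 0.16 at 10 nM (adjusted p = 0.0682), and at 1 µM GCLM rose by 0.60 ± 0.16 (0.26 to 0.94, limma adjusted p = 0.0387). In the 1 µM library at 14.5 FPKM (replicate 1), an assembled transcript of the locus (MSTRG.1742.3) brought the sum to 35.6. Among its transcripts the largest change was in the minor ENST00000615724, with a log2 fold change of 1.14 ± 0.36 at 1 µM (limma adjusted p = 0.240 over 21181 transcripts). Of 30 member transcripts tested in limma, 0 passed in any PCB 126 comparison, where 0.00472%, 0.0614% and 0.552% of transcripts were called at the rising concentrations. At an unadjusted p under 0.05 there were 2 of the 30 at 10 nM and 2 at 1 µM, against 4.81% and 9.71% of transcripts.

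SRXN1 (ENST00000381962, chr20:646615-653370, minus strand, a gene with 1 listed transcript) had FPKM of 63.6, 61.1, 53.3, 59.4 and 33.3 in controls and 61.9, 77.6, 67.2, 74.5 and 74.7 at 100 pM. At 10 nM its values were 91.3, 78.7, 40.8, 106 and 58.1, and at 1 µM 51.4, 81.9, 79.9, 96.5 and 50.97. At 100 pM none was among the multiply aligned libraries, though replicate 4 has no entry, but control replicate 5 was. At that concentration 4 of 5 libraries were above the highest control, with a log2 difference of 0.42 (2-sided exact permutation test, unadjusted p = 0.0159, where the smallest p that 5 against 5 allows is 0.00794). Without control replicate 5 (33.3 FPKM) the log2 difference was 0.26. In limma the change did not pass at 100 pM (0.42 ± 0.27, -0.13 to 0.97, unadjusted p = 0.132). Nor did it pass at 10 nM (0.42 ± 0.27, -0.13 to 0.98, adjusted p = 0.865) or 1 µM (0.40 ± 0.27, -0.16 to 0.95, adjusted p = 0.519). Without the multiply aligned libraries SRXN1 rose by 0.53 ± 0.13 at 1 µM (0.24 to 0.81, limma adjusted p = 0.0329). It was also 0.62 ± 0.13 higher at 10 nM (adjusted p = 0.0555).

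NFE2L2, the gene of NRF2 itself, was spread over 2 main transcripts, ENST00000397063 (49.4% of the gene's FPKM) and ENST00000397062 (42.02%, chr2:177230305-177265131, minus strand). Its FPKM was 39.3, 41.9, 36.3, 29.6 and 19.1 in controls, 37.6, 43.3, 37.1, 40.1 and 38.8 at 100 pM, 55.95, 47.99, 20.9, 53.7 and 35.7 at 10 nM and 11.04, 56.3, 56.2, 50.2 and 35.05 at 1 µM. The 3 remaining libraries at 10 nM and the 3 at 1 µM, apart from the multiply aligned ones, lay above every control, and the lowest of all 40 NFE2L2 values was replicate 1 at 1 µM. The log2 fold change was 0.33 ± 0.35 at 10 nM (-0.40 to 1.05, limma adjusted p = 0.865) and 0.18 ± 0.35 at 1 µM (-0.55 to 0.90, adjusted p = 0.819). Without the multiply aligned libraries NFE2L2 rose by 0.56 ± 0.13 at 1 µM (0.28 to 0.83, limma adjusted p = 0.0204). At 10 nM it was 0.51 ± 0.13 (adjusted p = 0.121). Of the 2 main transcripts together, ENST00000397062 held a median of 52.3% in controls and 21.8% at 1 µM (12.1% to 56.98%), a difference that did not pass after adjustment.

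KEAP1 (ENST00000393623, chr19:10486126-10502896, minus strand, 63.4% of the locus) showed no such pattern. Its FPKM was 23.5, 21.9, 22.8, 19.96 and 11.1 in controls, 19.5, 18.9, 22.6, 25.3 and 22.3 at 100 pM, 23.1, 19.3, 10.9, 23.8 and 18.05 at 10 nM and 16.95, 20.6, 21.1, 24.6 and 14.3 at 1 µM, and the groups overlapped throughout. The log2 fold change at 1 µM was -0.00 ± 0.25 (-0.52 to 0.51, limma adjusted p = 0.999), and 0.00 without the multiply aligned libraries (adjusted p = 0.994). Set against KEAP1 in the same library, with assembled transcripts, NFE2L2, SRXN1, GCLM and SLC7A11 were each higher in all 5 libraries at 10 nM than in any control, as were the ratios of 1.6% of 10178 other genes. At 1 µM, where 1.83% of genes stood clear, all 4 ratios overlapped the controls. At 10 nM each of the 4 had the smallest possible exact permutation p of 0.00794, 0.127 after adjustment over the 64 ratios and comparisons tested. These ratios were chosen after the values were seen.

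GCLC (ENST00000229416, chr6:53497341-53545129, minus strand, 87.3% of the gene) carries out the rate-limiting step of glutathione synthesis together with GCLM. Its FPKM was 47.7, 49.9, 43.8, 44.6 and 27.6 in controls, 41.1, 50.7, 47.1, 55.5 and 50.6 at 100 pM, 51.7, 48.2, 26.4, 65.1 and 36.7 at 10 nM and 18.9, 47.8, 48.7, 54.4 and 35.1 at 1 µM. Unlike its partner it overlapped the controls in both sets of libraries. The log2 fold change was 0.06 ± 0.28 at 10 nM (limma adjusted p = 0.941) and -0.12 ± 0.28 at 1 µM (-0.70 to 0.46, adjusted p = 0.854), and without the multiply aligned libraries 0.23 ± 0.13 at 10 nM (adjusted p = 0.833) and 0.11 ± 0.13 at 1 µM (adjusted p = 0.722).

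The ratio of GCLM to GCLC within a library does not depend on the library's FPKM scale. It was chosen after the values were seen. In controls it was 0.799, 0.749, 0.633, 0.718 and 0.682 (mean 0.716 ± 0.0633, SD, n = 5). At 10 nM it was 1.01, 1.09, 0.931, 0.948 and 1.05 (1.01 ± 0.0681), and all 5 libraries, multiply aligned ones included, were above the highest control, as were the ratios to GCLC of 0.574% of 9754 genes (1.9% at 1 µM). At 1 µM it was 0.765, 1.18, 0.891, 1.02 and 1.05 (0.981 ± 0.160), with 4 of 5 above. The 2-sided exact permutation p was 0.00794 at 10 nM and 0.0159 at 1 µM, and both were 0.0635 after adjustment over 8 comparisons. With assembled transcripts the means were 0.837 ± 0.0714 in controls, 1.11 ± 0.0865 at 10 nM and 1.297 ± 0.342 at 1 µM. Both PCB 126 groups then lay wholly above the controls, as did 0.688% and 2.63% of genes, with replicate 1 at 1 µM highest at 1.88 (exact permutation p = 0.00794, adjusted p = 0.0317). That sum, like the ratio, was chosen after the values were seen, so these p-values are a description only. At 100 pM the mean ratio was 0.813 ± 0.0990 (exact permutation p = 0.103), and in the herbicide groups the means were 0.715 to 0.804.

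**Figure D3:**
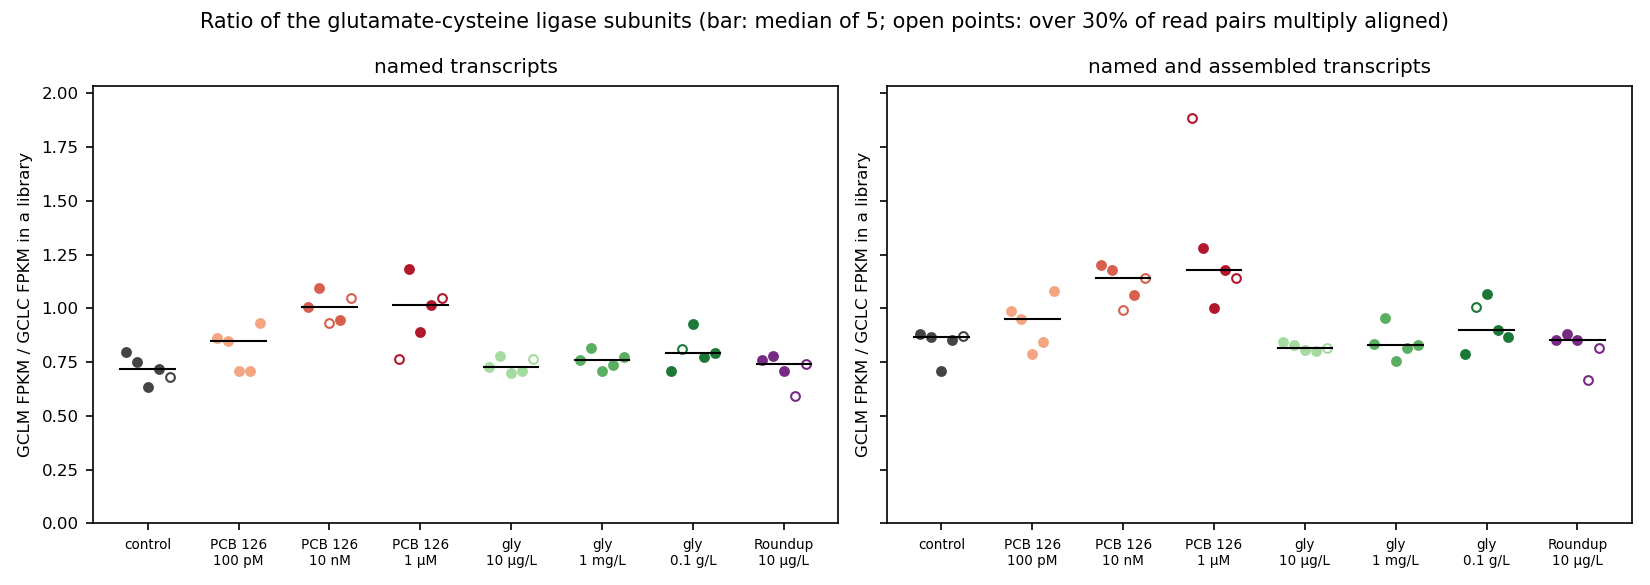
Ratio of GCLM to GCLC FPKM in each library by group, from named transcripts and with assembled transcripts added; bars are group medians and open points the 9 libraries with over 30% of read pairs aligned more than once. At 10 nM PCB 126 all 5 libraries lie above the highest control (0.799) in the named ratio.

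The other 3 members passed at no PCB 126 concentration. NQO1 (ENST00000320623, chr16:69709401-69726951, minus strand) had a median of 2.65 FPKM in controls, 2.95 at 100 pM, 2.46 at 10 nM and 2.43 at 1 µM, where its range was 1.07 to 2.61. In a fit with no filter on low values its log2 fold change was 0.02 at 10 nM and -0.15 ± 0.23 at 1 µM (limma adjusted p = 0.898), and without the multiply aligned libraries 0.08 and -0.15 ± 0.20 (adjusted p = 0.886 at 1 µM). HMOX1 with assembled transcripts was 7.71, 7.13, 3.12, 7.19 and 3.86 FPKM at 10 nM and 3.03, 6.71, 5.097, 5.88 and 4.55 at 1 µM, within the control range or below it. Its log2 fold change at 1 µM on that sum was -0.28 ± 0.26 (adjusted p = 0.588), and -0.18 ± 0.18 without the multiply aligned libraries (adjusted p = 0.608). TXNRD1 on the same sum was 402, 222, 116, 363 and 170.0 FPKM at 10 nM and 126, 375, 437, 453 and 195 at 1 µM. Its log2 fold change was -0.12 ± 0.36 at 10 nM and 0.18 ± 0.36 at 1 µM, against -0.55 ± 0.96 and 0.04 ± 0.96 from named transcripts (limma adjusted p = 0.867 and 0.989). The same sum gave, without the multiply aligned libraries, 0.04 ± 0.23 and 0.44 ± 0.23 (adjusted p = 0.996 and 0.284), and named transcripts -0.32 ± 0.92 and 0.98 ± 0.92 (adjusted p = 0.999 and 0.629).

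With all libraries and no further scaling no tested member passed. With all libraries kept, 75th-percentile scaling called SRXN1 at 1 µM (limma adjusted p = 0.0312). Quantile normalization called SRXN1 (0.000192) and SLC7A11 (0.021) there, and array weights GCLM, NFE2L2, SLC7A11 and SRXN1. A replicate block called no member. Both scalings also called more genes in total, as given below. In the unscaled fit the median over the 7 members was above that of all genes, a description with no test. This median log2 fold change was 0.29 at 100 pM, 0.33 at 10 nM and 0.18 at 1 µM, against 0.07, -0.21 and -0.26 over all genes tested. At an unadjusted p under 0.05 there were 0, 1 and 0 members, against 1.19%, 4.85% and 13.6% of genes. No member stood clear of the control range with all libraries, where the share of genes wholly above the controls was 0.113% at 100 pM, 0.267% at 10 nM and 0.707% at 1 µM, and wholly below 0.0513%, 0.246% and 1.64%. Among the remaining libraries (3 against 4) NFE2L2, SRXN1, GCLM and SLC7A11 lay wholly above the controls at both concentrations, as did 3.63% of genes at 10 nM and 4.94% at 1 µM. The 2-sided exact permutation p of each was 0.0571, the smallest that 3 against 4 allows. A trend over the dose steps passed for the same 4 genes without the multiply aligned libraries (limma adjusted p = 0.00516 for NFE2L2, 0.0129 for SRXN1, 0.0133 for GCLM and 0.0169 for SLC7A11, against 7.15% of genes) and for 0 members with them (3.78%; 0 members and 19.7% of genes at an unadjusted p under 0.05). The F-test across the 4 groups likewise passed for those 4 without the multiply aligned libraries (3.31% of genes) and for 0 with them (1.39%; 0 members and 9.56% of genes at an unadjusted p under 0.05). At 100 pM 0 members passed in either set, where 0% of genes were called in each.

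**Figure D4:**
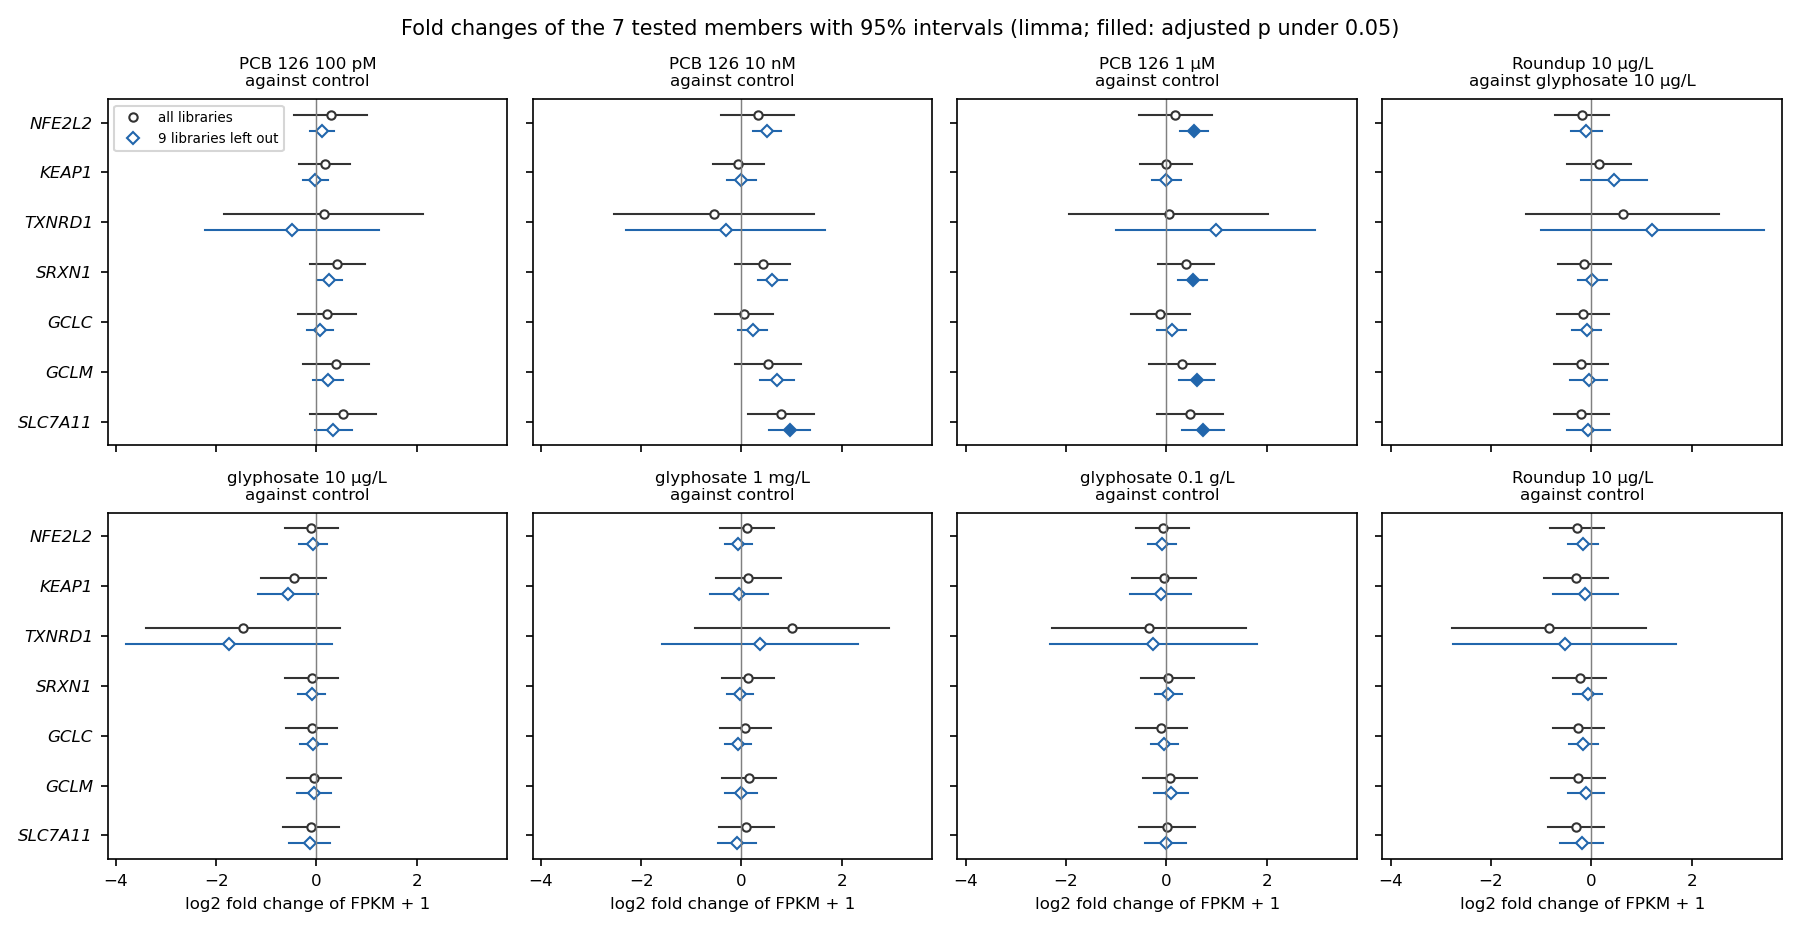
Log2 fold change with its 95% interval for the 7 tested members in the 8 comparisons, with all libraries and without the 9 libraries that had over 30% of read pairs aligned more than once; filled points have a limma adjusted p under 0.05. With all libraries no point is filled, and without them SLC7A11 is filled at 10 nM and SLC7A11, GCLM, SRXN1 and NFE2L2 at 1 µM.

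The second question was whether glyphosate or Roundup changed the same genes. None of the 7 tested members passed at any glyphosate concentration or with Roundup, with or without the multiply aligned libraries, and each group overlapped the controls for every member. limma called 0 of 9533 genes (0%) in each of these comparisons. At an unadjusted p under 0.05 there were 0 members, against 0.997%, 1.31% and 0.881% of genes at the rising glyphosate concentrations, 1.2% for their trend and 1.73% with Roundup. Genes wholly above the controls made up 0.0105%, 0.147% and 0.042% at those concentrations and 0.021% with Roundup, and genes wholly below 0.042%, 0.0315%, 0.042% and 0.021%. The controls are the same 5 libraries as for PCB 126. At 10 µg/L glyphosate all 7 fold changes were below 0, at 1 mg/L all 7 were above 0, and at 0.1 g/L 3 of 7 were above 0, while the median of all genes was -0.04, 0.14 and -0.01.

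SLC7A11 was 10.2, 14.2, 11.3, 12.2 and 6.44 FPKM at 10 µg/L glyphosate and 10.2, 14.6, 9.97, 6.56 and 6.16 with Roundup at the same labelled concentration. Both sets ran within or just below the control range of 6.45 to 16.7. GCLM was 30.5, 38.04, 27.3, 34.5 and 17.97 FPKM with glyphosate and 30.8, 37.6, 25.9, 17.1 and 18.1 with Roundup, where the lowest values (replicates 4 and 5) were multiply aligned libraries. Against the control, Roundup gave log2 fold changes of -0.31 ± 0.27 for SLC7A11 (-0.86 to 0.24), -0.26 ± 0.26 for GCLM and -0.23 ± 0.26 for SRXN1 (limma adjusted p = 0.902 for each). At 1 mg/L glyphosate the members other than TXNRD1 differed by 0.08 to 0.16 (adjusted p = 0.963). At 0.1 g/L, the highest concentration, they differed by -0.10 to 0.06 (adjusted p = 1). KEAP1 at 10 µg/L glyphosate was 23.1, 22.6, 5.75, 13.95 and 11.1 FPKM, and its low replicate 3 rose to 17.4 with assembled transcripts. In that library NQO1 went from 0.215 to 2.33 FPKM. TXNRD1 showed the largest named fold changes, -1.47 ± 0.94 at 10 µg/L and 1.01 ± 0.94 at 1 mg/L, from values of 35.7, 20.9, 23.999, 91.9 and 9.39 and 339, 384, 220.5, 19.02 and 183 FPKM that overlapped the controls.

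Roundup and glyphosate were compared directly at 10 µg/L, the formulation against its active ingredient. The difference on the log2 scale was -0.20 for SLC7A11 (95% interval -0.75 to 0.35), -0.21 for GCLM (-0.75 to 0.33), -0.14 for SRXN1 (-0.66 to 0.39), 0.16 for KEAP1 (-0.49 to 0.80) and 0.62 for TXNRD1 (-1.31 to 2.56). No member passed (limma adjusted p = 0.974, 0% of genes called, 1.27% at an unadjusted p under 0.05). These intervals show what size of difference remains possible, with the spread estimated from all 25 libraries of the glyphosate table. HMOX1 by named transcripts was lower with Roundup than in the control in an exact permutation test (0.132 to 0.377 FPKM against 0.362 to 0.527, unadjusted p = 0.0159). In limma with no filter its log2 change was -0.18 ± 0.11 (adjusted p = 1), and the named transcripts hold 6.29% of that locus's FPKM summed over all libraries. Most of the named value lies in ENST00000494998, at a mean of 0.378 FPKM over all libraries. Replicates 4 and 5 of Roundup and replicate 5 of the control are multiply aligned libraries. With assembled transcripts the ratio of HMOX1 to KEAP1 averaged 0.316 with Roundup and 0.303 in controls.

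By named transcripts, and with HMOX1 left out, not all members moved together across the 40 libraries. NFE2L2, SRXN1, GCLC, GCLM and SLC7A11 correlated with each other at a Pearson r of 0.803 to 0.955. After scaling each library by its 75th percentile these pairs stood at 0.665 to 0.948. Pairs that held KEAP1, NQO1 or TXNRD1 stood at 0.371 to 0.789 before scaling. The named share of TXNRD1, KEAP1, NQO1 and GCLM varied by library, and its part in these correlations and those below was not tested. The gene most like GCLM among 12648 genes was SLC7A11, and the gene most like SLC7A11 was GCLM (Pearson r = 0.955 on log2(FPKM + 1), 0.948 after scaling each library by its 75th percentile). GCLM was also close to IL1RAP (0.940) and to NFE2L2 (0.938), and the third nearest to SLC7A11 was SRXN1 (0.901). The nearest genes to NFE2L2 were EDIL3 (0.952), EFNA5 (0.946) and CDC42EP3 (0.945), and to SRXN1 PTGR1 (0.934), SLC47A1 (0.930) and GPAT3 (0.929). GCLC lay nearest to EHHADH (0.959), MIGA1 (0.950) and ABCC2 (0.950). KEAP1 lay nearest to QSOX2 (0.876), NQO1 to SMAP2 (0.854) and TXNRD1, by named transcripts, to GCH1 (0.734). NFE2L2 and KEAP1 correlated at 0.616, and at 0.226 after scaling. All libraries share their FPKM scale across genes, and the median r with all genes was 0.411 for SLC7A11 and 0.670 for GCLC, so these values are a description only.

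**Figure D5:**
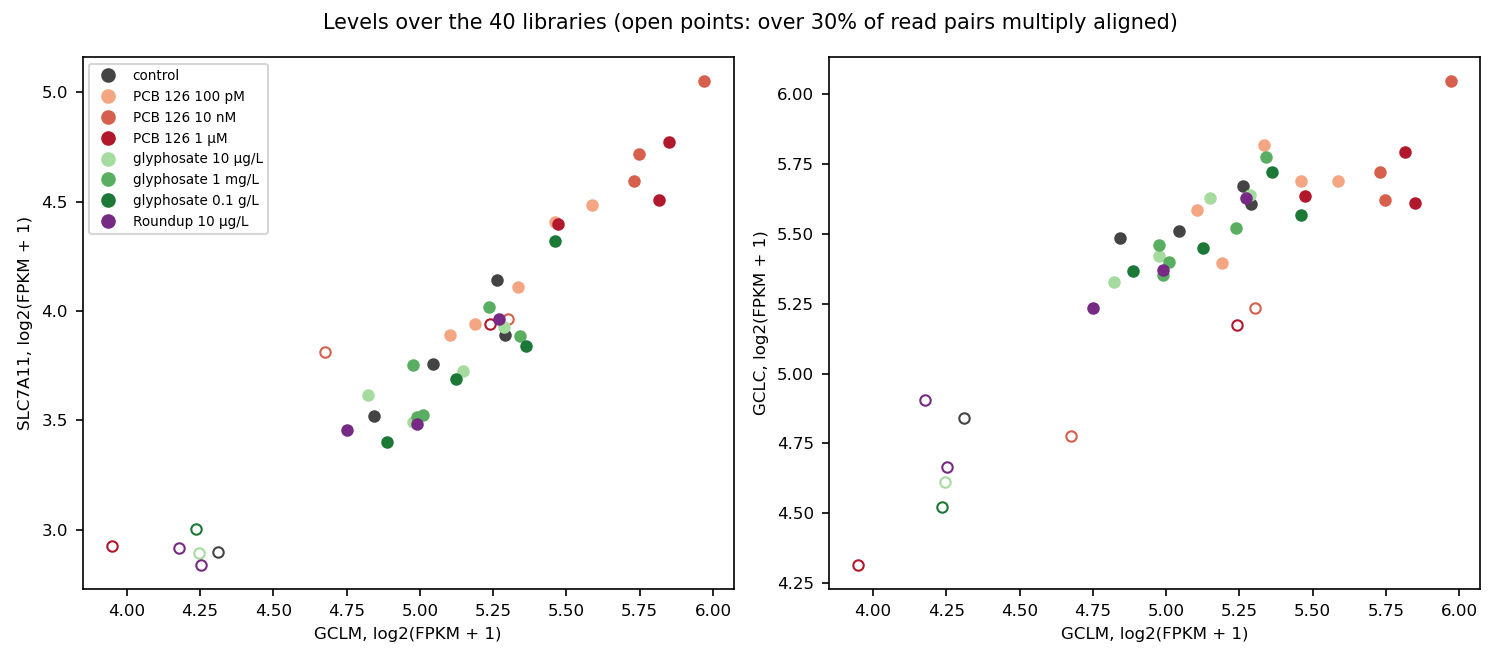
GCLM against SLC7A11 and against GCLC as log2(FPKM + 1) in the 40 libraries, coloured by exposure, with open points for the 9 libraries that had over 30% of read pairs aligned more than once. GCLM and SLC7A11 lie along 1 line (r = 0.955), while the 10 nM and 1 µM PCB 126 points, except replicate 1 at 1 µM, have more GCLM relative to GCLC than any control.

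The wider pathway was read from lists of 50 other genes. Of 8 NRF2 partners and regulators, 1 was called higher at 1 µM PCB 126 and 0 at 10 nM (0 there at an unadjusted p under 0.05). It was MAFF, a small MAF protein of the kind with which NRF2 binds DNA. MAFF stood at 1.37 to 3.47 FPKM in controls (median 1.96), 1.29 to 7.20 at 10 nM (median 4.25) and 4.67 to 9.59 at 1 µM (median 7.76). Every 1 µM library exceeded every control, as for 0.707% of all genes. The log2 fold change was 1.39 ± 0.28 with all libraries (limma adjusted p = 0.00641) and 1.36 ± 0.21 without the multiply aligned ones (adjusted p = 0.00167). The variance limit that admitted MAFF to the test was taken over exposed libraries as well as controls. No fit without that limit is given for MAFF.

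Calls around the members are set beside the share of all genes. With all libraries limma called 0.205% of genes at 10 nM and 1.87% at 1 µM. Without the multiply aligned libraries it called 0.675% and 6.34%. Of 9 tested genes of glutathione and NADPH supply, 6 of the thioredoxin and peroxiredoxin system and 8 other NRF2-responsive detoxification genes, 0 were called at 10 nM or 1 µM with all libraries. At an unadjusted limma p under 0.05 there were 0, 0 and 2 at 1 µM, against 13.6% of all genes. The median log2 fold changes of these lists at 1 µM were -0.00, -0.16 and -0.28 against -0.26 for all genes. Without the multiply aligned libraries 1 of these genes was called at 1 µM: GPX2, a glutathione peroxidase, rose by 0.74 ± 0.18 (limma adjusted p = 0.0279). Of 6 tested targets of ATF4, a factor also known to activate SLC7A11, 0 were called in either set and the median was -0.09 with all libraries. Of 5 heme and iron genes 0 were called at 1 µM in either set. The AhR targets were called in 4 of 5 cases at both 10 nM and 1 µM, in either set, CYP1A1 by 6.80 and 6.61 and TIPARP by 2.32 and 3.21 on the log2 scale with all libraries. No gene of any of these lists was called in a herbicide comparison with all libraries or without the multiply aligned ones.

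Markers of cell type moved in the same PCB 126 groups. The shares of all genes called, given above, are the background for these counts. Of 7 hepatocyte markers limma called 1 lower at 1 µM (TTR, -1.62, adjusted p = 0.00797), and 2 without the multiply aligned libraries (ALB and TTR). The summed level of that list ran from 13261 to 19395 FPKM in controls and from 5432 to 13293 at 1 µM. Of 5 biliary and progenitor markers 3 were tested, with 0 called at 1 µM and 1 (SPP1, lower) without the multiply aligned libraries, and sums of 224 to 452 FPKM in controls and 122 to 215 at 1 µM. Of 5 stromal markers 3 were tested and COL3A1 was called lower (-3.07), while LUM and COL1A1 were called higher without the multiply aligned libraries. The stromal sums were 34.96 to 78.6 FPKM in controls and 38.02 to 175 at 1 µM. At 10 nM COL3A1 was called lower (-1.87, limma adjusted p = 0.0232) with all libraries and LUM higher (1.05, adjusted p = 0.00105) without the multiply aligned ones, and 0 hepatocyte or biliary markers were called in either set (1 of each at an unadjusted p under 0.05). The sums at 10 nM were 7842 to 20453 FPKM for the hepatocyte list, 128 to 301 for the biliary list and 46.6 to 141 for the stromal list. The part of these shifts in the values of the NRF2 genes was not tested.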

How the data were processed

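RNA from 40 HepaRG libraries (8 groups of 5) had been prepared with a directional ribosomal-depletion kit, aligned by the authors to GRCh38 with HISAT2, and assembled and quantified with StringTie; no tool version is given in the sources used here. The deposited values are FPKM for each of 234960 transcripts, in a PCB 126 table (20 libraries) and a glyphosate table (25 libraries) that share the 5 controls. In 9 columns the authors' FPKM hold 1 or 2 values just below 0, recorded as a score, and these 10 values were set to 0. Counts were not used here, so no counting interval is given.

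FPKM were summed per gene name and tested on log2(FPKM + 1) with limma 3.58.1 in R 4.3.3 (all groups of a table in 1 fit, no covariate), for genes whose variance of FPKM was above 1, with Benjamini-Hochberg adjustment over all genes. Single values were compared with 2-sided exact permutation tests. Of 35782 transcripts without a gene name, 17995 were given to the named gene of the same locus and strand, as an added sum chosen after seeing the data. Which libraries had over 30% of read pairs aligned more than once was read from the study's alignment summary. Members, lists and tests were chosen with earlier results of these data known. The text names all 9 members, their leading transcripts, list genes with an adjusted p under 0.05 (up to 6 a list) and the nearest 3 genes by correlation; GCLM over GCLC, ratios to KEAP1, GPX2 and minor transcripts were picked once their values were known. The fit was tested on simulated data with independent noise for each gene. That test does not bear on shifts shared by the genes of a library. Replicate numbers are names in library order, each number holding a library of every group. Over 140 pairs of libraries with the same number the correlation of deviations had a median of 0.050 (-0.166 to 0.365), and 40 exceeded 0.1. Over 560 pairs with different numbers the median was -0.020, and 30 of 40 libraries correlated best with their own number. The labels state no pairing, so the reported fit has no block, and a fit with a replicate block is given below.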

Additional observations from a re-analysis of the deposited data

Results flagged for a closer look

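In 9 of the 72 combinations of member and group, 1 library lay further from its nearest neighbour than the Dixon limit of 0.71 of the group's range, where chance gives about 1 in 20. Of these, 7 fell in multiply aligned libraries. Control replicate 5 was lowest for KEAP1 (11.1 FPKM), SRXN1 (33.3) and GCLC (27.6). Replicate 5 of glyphosate at 10 µg/L was lowest for NFE2L2 (16.2, the others 30.6 to 38.02). Replicate 2 of glyphosate at 0.1 g/L was lowest for NFE2L2 (18.8) and KEAP1 (12.9). Replicate 1 of PCB 126 at 1 µM was lowest for NQO1 (1.07). The other 2 were both replicate 4 of glyphosate at 1 mg/L, lowest for TXNRD1 (19.02 FPKM by name, 206.9 with assembled transcripts) and highest for SRXN1 (66.8).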

How the results depend on the processing

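The count of members passing in the PCB 126 comparisons depends on how libraries are scaled or chosen. It was 0 in every comparison with a pseudocount of 0.1, a mean FPKM of at least 1, no filter, all 40 libraries or only 2 groups in a fit, assembled transcripts alone and the replicate block (37 genes called at 10 nM and 357 at 1 µM, against 20 and 182 without the block). The replicate numbers pair nothing by the labels, though 30 of 40 libraries correlate best with their own number. At 10 nM, 1 µM, the F-test and the trend it was 0, 1, 0 and 1 after 75th-percentile scaling and with a library-size term in an ordinary linear model (SRXN1 in each), 3, 2, 2 and 3 after quantile normalization, 3, 4, 3 and 4 with array weights, and 1, 4, 4 and 4 without the multiply aligned libraries. Added after seeing the data, assembled transcripts with 75th-percentile scaling gave 2, 2, 2 and 2, and without the multiply aligned libraries 3, 4, 4 and 4, while named transcripts with neither filter nor multiply aligned libraries gave 0, 2, 1 and 3. Leaving out each library in turn gave counts from 0 to 0. The cause was not tested. All genes called at 1 µM numbered 63 higher and 119 lower in the reported fit, 510 and 615 after quantile normalization, and 247 and 343 when scaled to the 75th percentile, and in total ran from 154 to 1125 over the alternatives (10 nM: 14 to 223). At 100 pM and for the herbicides 0 members passed under any setting, although array weights called 550 genes for Roundup against control. No called fold change was reversed. SLC7A11 at 10 nM ran from 0.79 to 1.00 over the alternatives and from 0.60 to 0.94 with a library left out; at 1 µM from 0.47 to 0.78 and from 0.28 to 0.76. NFE2L2 at 1 µM ran down to -0.00 with a library left out. The GCLM to GCLC difference, with an exact permutation adjusted p of 0.0635 by named transcripts, was 0.278 at 10 nM and 0.461 at 1 µM with assembled transcripts (adjusted p = 0.0317); ratio and sum were both chosen after the values were seen, so neither p is support. No F-test or trend was made with 2 groups, and no trend with all 40 libraries in 1 fit.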
